A study of Homo sapiens with 2 samples.

Results

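The genes of the cytosolic ribosomal proteins, the protein subunits of the ribosome that translates nuclear-encoded mRNAs, were examined in open chromatin of CAMA-1 cells. The members were the protein-coding genes of the GENCODE annotation whose symbols start with RPL or RPS and a digit, with RPLP0 to RPLP2 and RPSA, and without the RPS6K kinases. This gave 91 of 20033 protein-coding genes. Of these, 77 were core genes of the ribosome (31 of the small 40S subunit and 46 of the large 60S subunit), and the others were 3 tissue-restricted paralogs (RPL3L, RPL10L and RPL39L), 7 other paralogs, 3 readthrough genes that join a ribosomal protein gene to its neighbour, and RPS19BP1, whose product binds a ribosomal protein but is not one. CAMA-1 is an established epithelial cell line from breast cancer. Its adherent cultures were grown in serum-supplemented medium and left untreated. Nuclei of 2 biological replicates were cut with Tn5, a transposase that inserts sequencing adapters where DNA is accessible (ATAC-seq). Both replicates belong to a single condition of 1 line, so the comparisons are between genes, and no p-value is given.

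Every cytosolic ribosome carries 1 copy of most of these proteins, and growing cells make them in near equal amounts. In mammals the genes are scattered over the chromosomes. Their transcripts begin with a short run of pyrimidines after a C (the 5′ terminal oligopyrimidine motif, TOP), through which the mTOR pathway controls their translation, and many of their introns hold snoRNAs that guide the modification of ribosomal RNA. Processed pseudogenes, intronless copies made by reverse transcription, are numerous for these genes and usually lack the parent promoter.

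The lists held 245736 peaks in replicate 1 and 259745 in replicate 2, with median widths of 297 and 300 bp. Each peak had a fold enrichment, the height of stacked reads at the peak over the background of the peak caller, each increased by 1, and its median over all peaks was 8.28 and 7.96. No read total accompanied the lists, so the depth is unknown from them, and a lower peak in bulk chromatin cannot be told apart between fewer open cells and less opening per cell. A gene was said to have a peak at a transcription start site (TSS) where a peak lay within 1 kb of any of its annotated TSSs, and its strength was the fold enrichment of the strongest of these. All 8 markers of luminal breast epithelium had such a peak in both replicates, against 3 of 8 markers of blood cells and 79.3% of all protein-coding genes.

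The promoters of 11 members are given first, because they show how the pyrimidine run at the TSS, a feature in which these promoters differ from most others, varies among the genes. They are 3 core genes with strong peaks over their canonical TSS (RPSA, RPS3 and RPL15), the 3 with the weakest (RPL19, RPL17 and RPL32), a classical TOP gene (RPS6, which encodes the S6 kinase substrate), the gene with the longest run (RPL7A), and 3 paralogs (RPL36AL, RPL7L1 and RPL10L). Each line holds 120 bases of the sense strand, with the RefSeq TSS at base 101, from the RefSeq promoters of GRCh38.p14. Capitals mark the longest run of C and T that touches the window of 10 bp on each side of the TSS, as far as it lies within the line (the 13-base run of RPL15 goes on past its end).
RPSA (chr3:39406620-39406739, plus strand): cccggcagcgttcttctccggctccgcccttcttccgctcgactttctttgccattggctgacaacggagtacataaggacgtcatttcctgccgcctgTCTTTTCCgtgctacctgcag
RPS3 (chr11:75399418-75399537, plus strand): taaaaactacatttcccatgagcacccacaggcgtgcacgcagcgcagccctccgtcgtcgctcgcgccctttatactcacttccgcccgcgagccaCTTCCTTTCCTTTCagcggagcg
RPL15 (chr3:23917032-23917151, plus strand): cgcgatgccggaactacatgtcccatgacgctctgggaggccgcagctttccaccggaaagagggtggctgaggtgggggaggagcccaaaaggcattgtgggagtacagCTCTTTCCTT
RPS6 (chr9:19380217-19380336, minus strand): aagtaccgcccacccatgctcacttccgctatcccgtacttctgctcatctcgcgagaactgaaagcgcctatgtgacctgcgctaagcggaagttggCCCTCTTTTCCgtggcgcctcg
RPL7A (chr9:133348118-133348237, plus strand): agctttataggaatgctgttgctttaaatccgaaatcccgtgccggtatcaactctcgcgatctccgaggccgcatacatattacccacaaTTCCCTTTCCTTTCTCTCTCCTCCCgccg
RPL19 (chr17:39200183-39200302, plus strand): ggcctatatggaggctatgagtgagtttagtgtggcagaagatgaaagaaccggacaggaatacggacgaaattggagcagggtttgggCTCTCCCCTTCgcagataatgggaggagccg
RPL17 (chr18:49492446-49492565, minus strand): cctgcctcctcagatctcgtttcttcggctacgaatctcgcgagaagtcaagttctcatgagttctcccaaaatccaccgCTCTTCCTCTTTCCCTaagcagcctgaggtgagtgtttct
RPL32 (chr3:12841546-12841665, minus strand): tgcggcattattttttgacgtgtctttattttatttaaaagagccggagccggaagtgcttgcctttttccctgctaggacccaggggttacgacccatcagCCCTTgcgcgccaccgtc
RPL36AL (chr14:49620607-49620726, minus strand): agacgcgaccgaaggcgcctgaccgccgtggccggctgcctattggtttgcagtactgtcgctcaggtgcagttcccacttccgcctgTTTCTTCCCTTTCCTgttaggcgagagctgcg
RPL7L1 (chr6:42879516-42879635, plus strand): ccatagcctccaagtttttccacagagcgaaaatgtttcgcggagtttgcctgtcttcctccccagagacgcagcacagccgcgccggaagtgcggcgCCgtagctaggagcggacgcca
RPL10L (chr14:46651762-46651881, minus strand): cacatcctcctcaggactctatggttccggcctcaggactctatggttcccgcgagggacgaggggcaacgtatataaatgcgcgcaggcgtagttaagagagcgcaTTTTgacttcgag
In RPSA, RPS3, RPS6 and RPL7A the run passed over the TSS. In RPL19 and RPL17 it ended before the TSS, in RPL15 it began after it, and in RPL32 it was 5 bases long. RPL10L and RPL7L1 had runs of only 4 and 2 bases.

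Every core gene had open chromatin at its start. All 77 had a TSS peak in both replicates (100%, Wilson 95% interval 95.2 to 100%), against 79.3% of all protein-coding genes. With the stricter condition of a peak over the canonical TSS itself, which is the start of the main transcript in the annotation, the core genes again stood at 77 of 77, against 65.0% of all protein-coding genes. The interval covers counting error only, and genes are not replicates. Other housekeeping complexes came close. TSS peaks in both replicates were present at 77 of 78 mitochondrial ribosomal protein genes (98.7%) and 37 of 39 proteasome subunit genes (94.9%). These groups were taken by symbol with no paralogs set apart, unlike the core genes, so the shares are not on like terms.

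The strength of these peaks was moderate. The median fold enrichment of the core genes was 64.4 in replicate 1 and 62.1 in replicate 2 (mean 63.3 ± 1.62, SD, n = 2), and that of all protein-coding genes that had one in each replicate was 51.8 and 53.3 (52.5 ± 1.08, SD, n = 2). Ranked by the mean of both replicates among the 15890 such genes, the median core gene was at percentile 59.0. Of the core genes, RPSA, RPS3 and RPL36 (3, or 3.90%) were in the strongest 10%, which by construction holds 10.0% of the genes. The strongest 25% held 20 core genes (26.0%, against 25.0% of all), and the lowest 25% held 8 (10.4%, against 25.0% of all). The quartiles of the core genes, 41.7 and 84.0, stood a factor of 2.01 apart, and those of all protein-coding genes, 28.3 and 83.4, a factor of 2.95. The share of core genes was thus below that of all genes in the strongest 10% and in the lowest 25%, and close to it in the strongest 25%. With only the peak over the canonical TSS counted, the median percentile was 53.8. The strongest 10% then held 2 of 77 core genes (RPSA and RPS3) and the lowest 25% held 13 of 77. By construction these parts hold 10.0% and 25.0% of the 13018 protein-coding genes with such a peak in both replicates. The lowest 25% thus held more core genes than the 8 by the strongest peak.

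**Figure D1:**
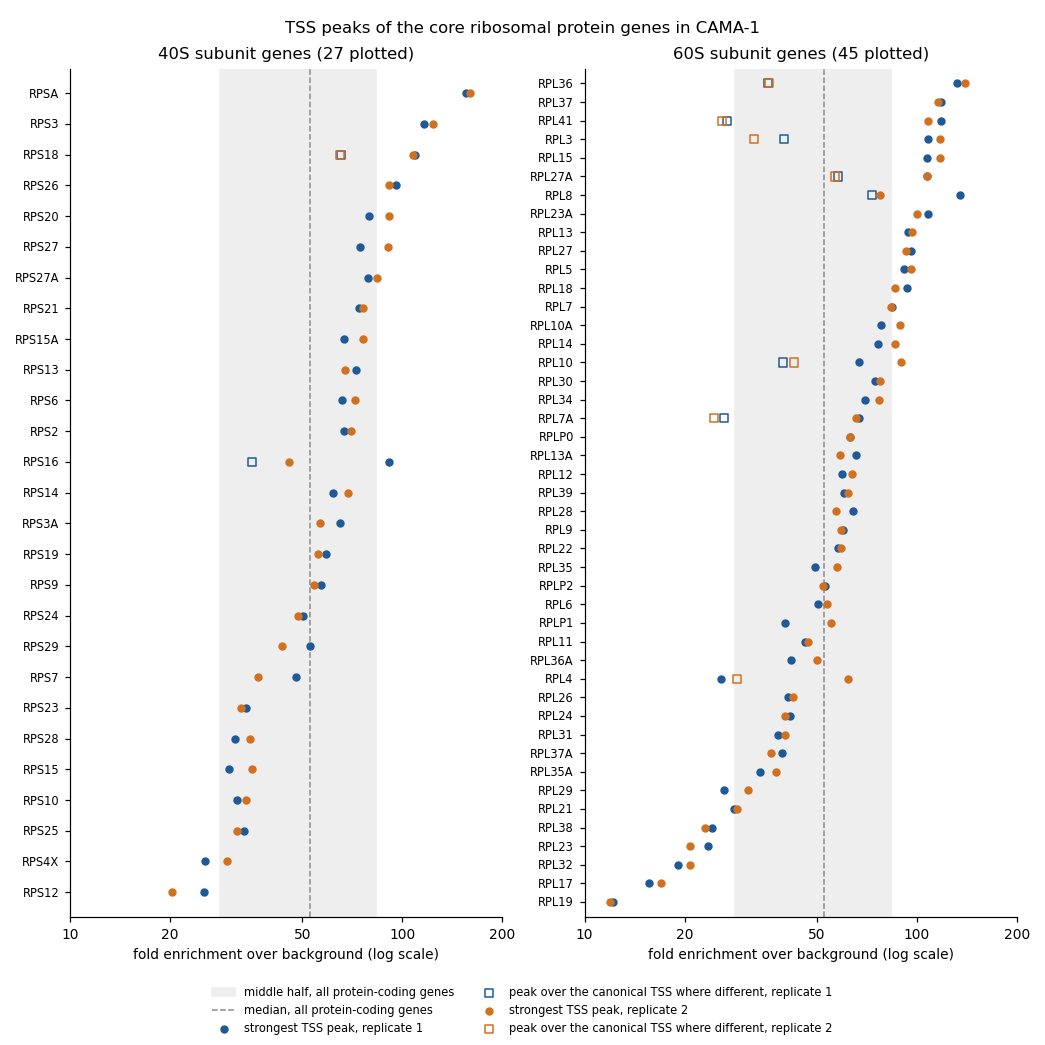
Fold enrichment (log scale) of the TSS peaks of 72 of the 77 core genes, with genes in rows, filled points for the strongest TSS peak in each replicate and open squares for the peak over the canonical TSS where it was another one. The shaded band spans the quartiles of all protein-coding genes (28.3 to 83.4) and the dashed line is their median (52.6), RPSA and RPL19 are the ends of the core genes, and the open squares of RPL36, RPL41, RPL3 and RPL7A lie far below their filled points.

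RPSA, which encodes a 40S protein also known as the laminin receptor precursor, had the strongest TSS peak of the core genes, 156-fold in replicate 1 and 159.9-fold in replicate 2 (percentile 96.8). The stack of reads was 675 high in replicate 1 (Poisson 95% interval 625 to 728) and 722 high in replicate 2 (670.3 to 777). RPS3, a protein of the channel through which mRNA enters the small subunit, had 116 and 124. RPL37, a zinc-binding 60S protein, had 118 and 116. RPL15, a 60S protein of the core of the subunit, had 107 and 117, with a peak that also lay at the start of NKIRAS1. In these 4 genes the strongest peak was the one over the canonical TSS.

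For others of the 10 highest genes, the strongest peak lay at another annotated start. RPL36 had 132 and 139.5 at a start 9.14 kb upstream that HSD11B1L and MICOS13 share, and 35.7 and 36.0 over its canonical TSS. RPL41, which encodes a very short basic peptide, had 118 and 108 at a peak about 1 kb downstream near ESYT1 and ZC3H10, and 26.9 and 25.9 over the canonical TSS. RPL3, whose product reaches toward the peptidyl transferase centre, had 108 and 117 at a peak across the 3′ end of the gene and 39.8 and 32.3 over the canonical TSS. The gap was smaller in RPL27A (107 and 107, with 58.0 and 56.8 over the canonical TSS) and in RPS18, a protein of the head of the 40S subunit (109 and 108, with 65.6 and 64.8). The strongest peak of RPS18 lay 4.17 and 4.34 kb downstream, near the start of B3GALT4. The 10 lowest genes included no such case, but they were ranked by the strongest peak, which moves such genes up the order. Over the canonical TSS the mean fold enrichments of RPL7A (25.4), RPL41 (26.4) and RPL4 (27.3) lay below that of RPS4X (27.6), which is among the 10 lowest. Over all core genes, the strongest peak differed from the one over the canonical TSS, in at least 1 replicate, in 11 genes, which also included RPL4, RPL7A, RPL8, RPL10 and RPS16. RPL7A, with the longest pyrimidine run, had 67.0 and 65.7 at a peak 3.56 kb downstream and 26.2 and 24.5 over its canonical TSS.

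The lowest core gene was RPL19, whose product forms a bridge to the small subunit, with 12.2 in replicate 1 and 11.9 in replicate 2 (percentile 10.2). Its stack was 52 reads high (Poisson 95% interval 38.8 to 68.2) and 53 high (39.7 to 69.3), so its intervals lay far below those of RPSA in both replicates. Next came RPL17, at the rim of the exit tunnel where the nascent chain leaves, with 15.6 and 17.0, and RPL32 of the large subunit, with 19.1 and 20.8. RPL23 had 23.5 and 20.8, and RPS12 had 25.3 and 20.3. RPL38, which in mice is needed for the translation of certain Hox mRNAs, had 24.2 and 23.0. RPS4X, the X-linked small-subunit gene with a counterpart on the Y chromosome, had 25.5 and 29.6, RPL21 had 28.1 and 28.7, and RPL29 had 26.2 and 31.0. Ordered by mean, neighbours from RPL23 to RPL38 overlapped in their replicate values, as did those from RPS4X to RPL29. RPL19 and RPL17 each lay below every core gene above them in both replicates, and RPL38 lay below RPS4X.

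The replicates ordered the core genes alike, with a Spearman correlation of 0.947 over 77 genes, a description only, since both lists share the cell line and the peak caller. In 3 core genes (3.90%) the replicates differed by more than 1.5 times, against 1.37% of all protein-coding genes. RPS16 had 90.9 in replicate 1 and 45.6 in replicate 2, RPL8 had 135 and 77.4, and RPL4 had 25.8 and 61.9. In each of them the strongest peak was a different one in the 2 replicates. Over the canonical TSS the values were 35.4 and 45.6 for RPS16, 73.2 and 77.4 for RPL8, and 25.8 and 28.7 for RPL4, all within 1.5 times. The next largest ratios were those of RPS7 (47.9 and 36.9), RPLP1 (40 and 55.1) and RPL10 (67.0 and 89.6, with 39.6 and 42.7 over the canonical TSS).

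The 40S genes had a median fold enrichment of 66.0 and 67.2 and the 60S genes of 61.7 and 62.0. The ratio of the 60S to the 40S median of the mean over replicates was 0.901, and with the peak over the canonical TSS it was 0.813. Dividing each value by the median of its chromosome turned the order, with a ratio of 1.07. The subunits overlapped over most of their range, from 21.2 to 158 for the 40S genes and from 12.1 to 136 for the 60S genes. Peaks of 60S genes were wider, with medians of 1199 and 1154 bp against 926 and 912 bp.

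Among functional groups, the P stalk, which recruits translation factors, lay near the median of all genes. Its RPLP0 had 62.8 in both replicates, RPLP1 had 40 and 55.1, and RPLP2 had 52.9 and 52.0. RPL5 and RPL11, which with 5S rRNA form the particle that can bind MDM2 and stabilise p53, differed from each other, with 91.3 and 95.7 for RPL5 and 46.0 and 46.9 for RPL11. The 9 genes of the exit tunnel rim had the lowest median percentile of the groups, 39.3, with 3 of 9 in the lowest 25% (33.3%, against 10.4% of the core genes and 25.0% of all, namely RPL17, RPL19 and RPL38) and RPL23A as the highest at 108 and 100.4. The 4 genes at the mRNA entry and decoding sites had medians of 50.3 and 52.7.

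Among 9 genes in which mutations cause Diamond-Blackfan anaemia, a failure of red cell production, RPS26 and RPL5 had the strongest peaks, 95.7 and 91.1 for RPS26. RPS19 had 58.9 and 55.9, and RPS24 had 50.4 and 48.6. RPS10 had 31.8 and 33.8 and RPL35A had 33.8 and 37.8, so the group spanned 32.8 to 93.5 in mean fold enrichment and its median percentile was 46.9.

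Genes that hold snoRNAs in their introns had higher medians than the others, 67.0 and 68.7 over 28 genes against 58.9 and 57.1 over 49. The strongest and some of the weakest peaks were both in snoRNA hosts, RPSA with 2 snoRNAs and RPL17 with 3. In 23 core genes (29.9%) the TSS peak also lay within 1 kb of a TSS of another protein-coding gene, against 25.0% of all. The shared peaks were wider, with a median of 1325 bp in both replicates against 906 and 926 bp, and their fold enrichment was 64.4 and 61.9 against 64.0 and 62.5.

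**Figure D2:**
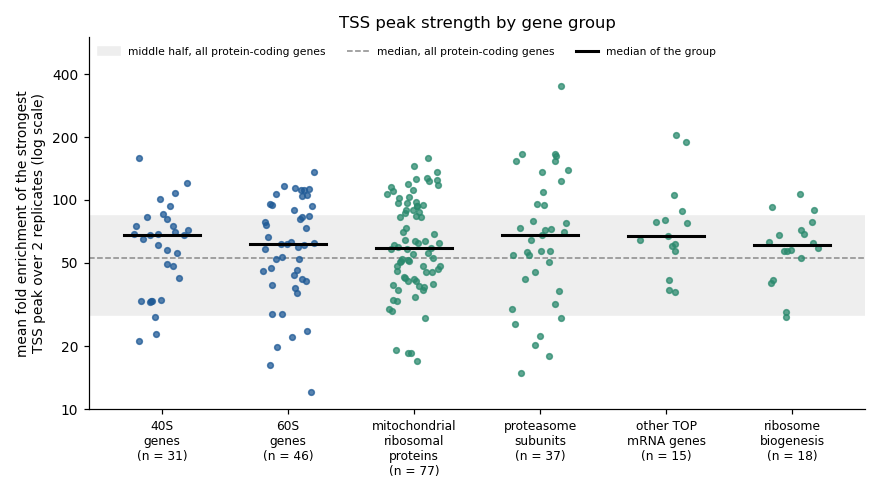
Mean fold enrichment of the strongest TSS peak over 2 replicates (log scale) for the 40S and 60S genes and 4 other gene groups, with a point per gene and a bar at each group's median, and the band and dashed line as the quartiles and median of all protein-coding genes. The medians of the 6 groups lie close together and above the dashed line, and the proteasome, mitochondrial ribosome and other TOP groups hold points above RPSA, the highest core gene (158).

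The other housekeeping groups had medians near that of the core genes and differed in their share of very strong peaks. Mitochondrial ribosomal protein genes had medians of 55.2 and 62.8 (median percentile 56.1) and proteasome subunit genes of 66.7 and 69.2 (64.3), and they had 9 genes each in the strongest 10%, 11.7% and 24.3% of those with a peak, against 3.90% of the core genes and 10.0% of all. Genes of other TOP mRNAs, mostly elongation and initiation factors, had 67.0 and 68.8 and a median percentile of 63.3 over 15 genes. They included EEF1D, a subunit of the exchange factor of elongation factor 1, with 209 and 201, and HNRNPA1, a splicing regulator, with 184 and 194, both above every core gene. EEF1A1, which delivers aminoacyl-tRNAs to the ribosome, had 35.2 and 37.1. The 18 ribosome biogenesis genes had 61.2 and 59.9, with nucleolin (NCL) at 115 and 99.5 and fibrillarin (FBL) at 27.6 and 27.6, and 0 of them were in the strongest 10%. No test of these differences was made.

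The peaks of the core genes reached farther upstream than downstream. The peak over the canonical TSS ended a median of 582 bp upstream and 410 bp downstream in replicate 1, and 590 and 411 bp in replicate 2. Over all protein-coding genes with such a peak the medians were 528 and 521 bp, and 535 and 525 bp. The downstream side was the longer one in 25 of 77 core genes (32.5%) in each replicate, against 48.4% and 48.7% of all genes. The shares were 40.3% and 39.0% in the mitochondrial ribosomal protein genes and 43.2% and 45.9% in the proteasome genes. In 48 core genes the upstream side was longer in both replicates, and in 21 the downstream side was.

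**Figure D3:**
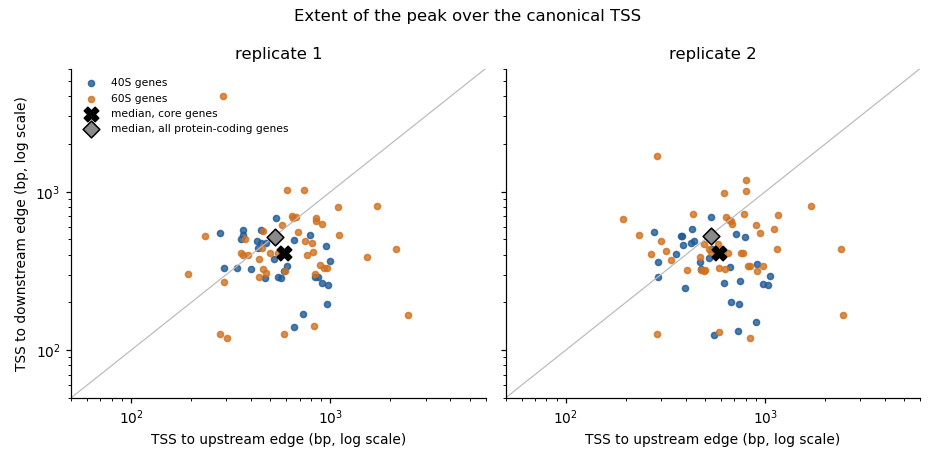
Distance from the canonical TSS to the upstream and downstream edges of the peak over it (bp, log scales), with a point for each 40S and 60S gene, in replicate 1 (left) and replicate 2 (right). The grey line marks equal distances, and the median of the core genes (582 and 410 bp, 590 and 411 bp) lies below it while that of all protein-coding genes (528 and 521 bp, 535 and 525 bp) lies close to it.

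The same lean was seen position by position near the TSS, and the opposite farther away. A peak covered the TSS of 100% of the core genes in both replicates, and still covered 97.4% at 250 bp upstream in both and 90.9% and 87.0% at 250 bp downstream. At 500 bp upstream 61.0% and 64.9% were covered, against 36.4% and 32.5% at 500 bp downstream, whereas all protein-coding genes had 38.6% and 39.1% upstream and 39.7% and 40% downstream. At 2000 bp it was 5.19% and 7.79% of the core genes upstream and 18.2% and 19.5% downstream. All protein-coding genes had 10.1% and 10.4% upstream and 12.1% and 12.4% downstream at that distance. At 3000 bp the core genes had 5.19% in both replicates upstream and 22.1% and 23.4% downstream. All protein-coding genes had 8.81% and 8.98% upstream and 9.72% and 10.0% downstream there. Core genes were short, with a median length of 5332 bp against 27471 bp. Peaks farther than 1 kb from any of their TSSs were present within 49.4% of them, against 70.5% of all genes.

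**Figure D4:**
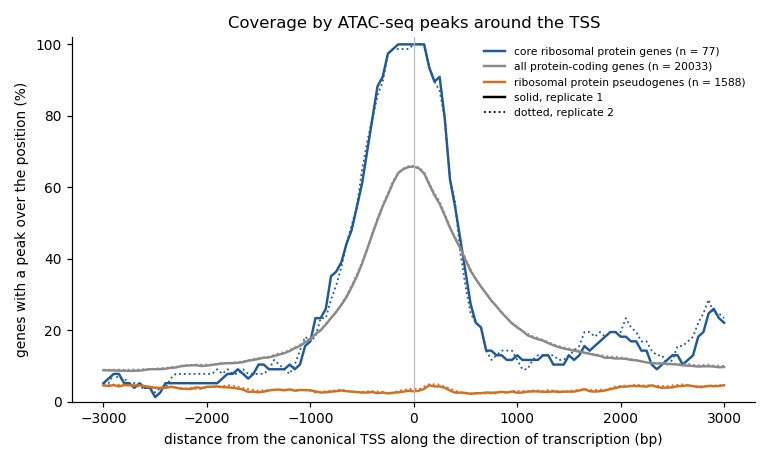
Share of genes (%) with a peak over each position from 3 kb upstream to 3 kb downstream of the canonical TSS, along the direction of transcription, for core genes, all protein-coding genes and ribosomal protein pseudogenes, in replicate 1 (solid) and replicate 2 (dotted). The core genes reach 100% at the TSS and fall faster downstream than upstream within 1 kb, then rise again downstream, all genes form a nearly even peak of 65.8% and 66.0%, and the pseudogenes stay low, at 2.90% and 3.65% at the TSS.

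In sequence, the core promoters shared a pyrimidine start. The RefSeq table held a promoter for 62 of 77 core genes, and 60 of these started within 10 bp of the canonical TSS. In the others, RPL6 and RPS29, the RefSeq start lay 320 and 12330 bp away. Among those without an entry were RPL5, RPL7, RPL8, RPL23, RPL23A, RPL30, RPL37, RPS2, RPS15A and RPS20. The TSS base was C in 49 of 62 (79.0%), against 10.7% of 15344 protein-coding promoters, where A was the usual base (50.8%, against 12.9% of the core promoters). The longest pyrimidine run at the start had a median of 12.0 bases, with a range of 2 (RPS29, at its distant RefSeq start) to 25, against 4 over all promoters. A run of at least 8 bases was present in 54 core promoters (87.1%, against 14.9% of all), and such a run passed over the TSS itself in 43 (69.4%, against 4.47%). The letters CTTTC or CTTTT, searched on the sense strand within 10 bp of the TSS, were found in 39 (62.9%, against 5.42% of all). Of the 9 other TOP genes with a promoter, 100% had the run and 77.8% these letters. TOP genes are defined by such a start, so their shares follow from the choice of the list and are no separate result. The mitochondrial ribosomal protein genes had 13.0% and 5.80%, close to all promoters.

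Other motifs were searched on both strands of the 300-base promoters. The ETS motif CCGGAAG was found in 21 core promoters (33.9%, against 14.8% of all) and in 43.5% of the mitochondrial ribosomal protein promoters. The YY1 motif AAGATGGC was in 6 (9.68%, against 4.15% of all), and in 30.4% of the mitochondrial ribosomal protein and 11.8% of the proteasome promoters. The SP1 motif GGGCGG was in 35 (56.5%, against 61.8%). The TATA motif TATAAA was in 5 (8.06%, against 9.41%), the E-box CACGTG in 3 (4.84%, against 8.86%) and the NRF1 motif GCATGCGC in 3 (4.84%, against 4.38%). The median GC content was 59.7%, against 63.7%, and the observed over expected ratio of CpG was 0.918, against 0.783. The last letters of the ETS motif, AAG, are the first of the YY1 motif, so 1 stretch can match both, and the initiator letters lie within a pyrimidine run. A match is a match of letters and not a shown site.

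**Figure D5:**
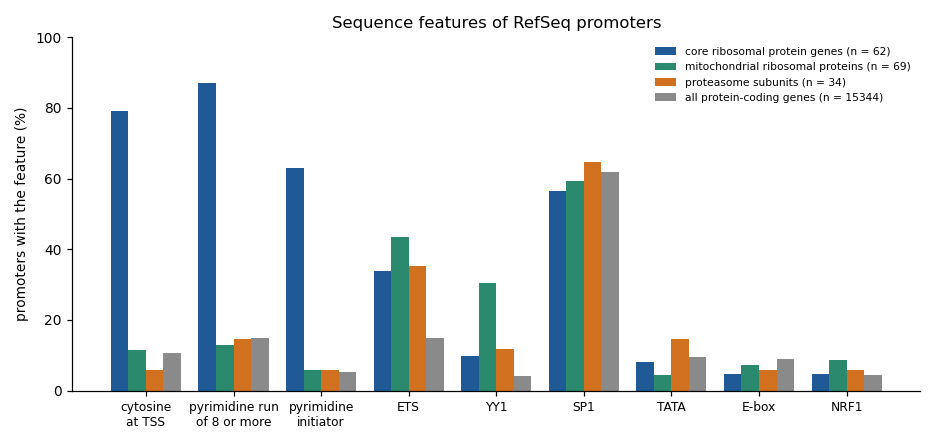
Share of RefSeq promoters (%) with each sequence feature, as bars from 0, for core ribosomal protein genes (n = 62), mitochondrial ribosomal protein genes (n = 69), proteasome subunit genes (n = 34) and all protein-coding genes (n = 15344). The core genes stand above the other 3 groups in the 3 features of the pyrimidine start (79.0%, 87.1% and 62.9%) and in none of the other motifs do they stand above all 3.

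The pyrimidine start was set beside the strength of the peak over the canonical TSS, a measure added after seeing the data because the strongest peak can lie at another start. The median fold enrichment of that peak was 53.4 in the 39 genes whose promoters had the initiator letters and 42.4 in the 23 without, with ranges of 22.8 to 158 and 12.1 to 112 that overlapped. The 23 included RPL6 and RPS29, whose letters were searched at RefSeq starts away from the canonical TSS. The 3 weakest genes, RPL19, RPL17 and RPL32, lacked the letters within 10 bp of the TSS, as did RPL15 at the upper end of that range. Of the 10 lowest core genes by the strongest peak, 8 had a promoter sequence, and 4 of these had the letters. Of the 10 highest, 8 had a sequence and 4 of them had the letters. Across the 62 genes, the fold enrichment over the canonical TSS had a Spearman correlation of 0.0632 with run length. That with GC content was 0.187 and that with CpG ratio 0.0490. These are descriptions across genes that share 2 libraries. Over 77 genes the fold enrichment of the strongest peak had a correlation of 0.432 with its width and of 0.0136 with the length of the gene.

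The paralogs ranged from no peak to some of the strongest. RPL10L, the testis paralog of RPL10, had no TSS peak in either replicate, and the distance to its nearest peak was 35601 bp (replicate 1) and 10021 bp (replicate 2). RPL3L, the paralog of RPL3 in heart and skeletal muscle, had only a small peak within 1 kb of a TSS, 4.83 and 3.98 (percentile 0.840, widths 188 and 159 bp), and none over its canonical TSS. RPL39L, known from testis and from cancer cells, had 80.3 and 78.7, above its parent RPL39 at 60.5 and 62.1 in both replicates. The 5 other paralogs with values all lay above the core median. RPL36AL had 129 and 130.5, at a peak that MGAT2 shares, RPL22L1 had 84.9 and 101, RPL26L1 had 75.0 and 70.8, RPS27L had 72.2 and 76.7, and RPL7L1 had 71.1 and 67.2. Of these, RPL36AL had a 15-base pyrimidine run and a C at its TSS, and RPL22L1 a 10-base run and a C, whereas the runs of RPL26L1, RPS27L and RPL7L1 were 3, 3 and 2 bases long. The run of RPL26L1 was read at a RefSeq start 544 bp from its canonical TSS. The Y-linked paralogs RPS4Y1 and RPS4Y2 are members whose values are not given. The 3 readthrough genes RPS10-NUDT3, RPL17-C18orf32 and RPL36A-HNRNPH2 had the same peaks as RPS10, RPL17 and RPL36A, and RPS19BP1 had 112 and 112.

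Ribosomal proteins that the symbol rule leaves out had values in the range of the core genes. FAU, a fusion of a ubiquitin-like protein with a 40S protein, had 41.4 and 49.3. RACK1, the scaffold on the head of the 40S subunit, had 84.2 and 81.8 (58.7 and 61.9 over the canonical TSS).

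Ribosomal protein pseudogenes had a peak within 1 kb of a TSS about as often as other processed pseudogenes. They were taken by symbol from all pseudogene types, and the others from processed ones only. Over the canonical TSS itself a peak lay in 2.90% and 3.65% of the ribosomal protein pseudogenes, against 4.60% and 4.41% at 3000 bp upstream. There was a small rise just downstream, with 4.60% and 4.91% at 150 bp downstream, against 2.33% and 2.39% at 250 bp upstream and 2.46% in both replicates at 500 bp downstream. Of 1588 ribosomal protein pseudogenes, 235 (14.8%, Wilson 95% interval 13.1 to 16.6%) had a TSS peak in both replicates, against 14.6% of 9089 other processed pseudogenes. Counting only pseudogenes more than 2 kb from any protein-coding TSS gave 13.9% (12.3 to 15.8%) against 13.6%. Their peaks had median fold enrichments of 9.66 and 10.6 and widths of 324 and 358 bp, far below those of the core genes and close to all peaks, and those of the other processed pseudogenes had 12.0 and 12.4. The core median was exceeded by 11 of the 235, and by 101 of 1327 other processed pseudogenes. Away from coding TSSs these counts were 7 of 209 and 64 of 1178. How reads with several matches in the genome were placed is not given in the sources used here, and its part in the peaks of the pseudogenes and of their parent exons was not tested.

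Core genes lay on 21 chromosomes, and so did not share a locus. The 6 genes on chromosome 17 had a median of 32.6 (range 12.1 to 104), below the chromosome medians of all protein-coding genes of 48.8 and 50.7, and included RPL19, RPL23 and RPL38 among the 10 lowest. The 4 genes on chromosome 8 had 84.7 (76.1 to 106) against 60.1 and 62.9, and the 5 on chromosome 11 had 70.0 against 41.4 and 41.6. Chromosome 19 held the most, 12 genes with a median of 65.2 (32.8 to 136), against 48.7 and 50.6. Divided by its chromosome median, RPSA stood at 2.94 in both replicates, RPS3 at 2.79 and 2.99, and RPL19 at 0.250 and 0.235. The copy number of these chromosomes in CAMA-1 was not measured in the lists, and its part in the levels was not tested.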

How the data were processed

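ATAC-seq peak lists of 2 biological replicates of CAMA-1 were analysed. According to the submitters' processing notes and the study's methods, reads were trimmed with Trim Galore 0.6.5, aligned to hg38 with Bowtie2 2.3.5.1, and peaks were called per replicate with MACS2 2.2.6. The settings of the caller and the treatment of duplicates are not given in the sources used here. The authors deposited, for each peak, its score, fold enrichment (a ratio of peak height to the background of the peak caller), −log10 p-value and −log10 q-value. The lists hold no read counts, so no count model was fitted and the depth per library was not available from them. The lowest −log10 q was 2.24 and 2.07. Replicate peaks were not pooled.

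Fold enrichments of each list fell on steps of 0.230 and 0.221, with residuals of at most 7.16e-05 and 8.13e-05 of a step. From these a single background for all peaks of a list (3.35 and 3.52 stacked reads) and the height of each peak were recovered. The fold enrichment was therefore not relative to a local background. Peaks were assigned to protein-coding genes of GENCODE release 44 within 1 kb (1000 bp) of any TSS, and the strongest was kept. Percentiles are among the protein-coding genes for which this gave a peak in each replicate. Errors are SDs over the replicates, intervals are Wilson or exact Poisson and cover counting error only, and no test was made, since both replicates are of 1 condition. Promoter sequences and motif searches used the RefSeq promoters of GRCh38.p14 (250 bases before the TSS and 50 from it on). The genes named are the 10 highest and 10 lowest core genes, the 3 largest and 3 smallest replicate ratios, the P stalk, 5S particle and Diamond-Blackfan anaemia genes, the paralogs, and ribosomal proteins outside the symbol rule, apart from some genes that are not reported here. The other genes were chosen after their values were seen. PSMC3IP, whose symbol resembles those of the proteasome but which is not a subunit, was left out of that group. The members and lists were chosen with earlier results of these data known. The assignment code was run on simulated peaks for 2593 genes, and recovered 1285 of 1285 placed peaks with 0 false ones. Each was a lone peak over the most 5′ TSS of a gene kept apart from others. The run thus checked the code only, and could not test shared peaks or the choice among several peaks. The alternatives computed were windows of 100 bp and 3 kb, a minimum −log10 q of 10, the most 5′ TSS and the −log10 q as strength. Others were division by the chromosome median, the exclusion of core genes that share a peak, the exclusion of all genes on chromosomes X and Y, and each replicate alone. Without the core genes that share a peak, percentiles were still taken among all protein-coding genes, including those that share a peak. The other samples and assays of the study were not analysed here. Scripts ran under Python 3.11.15 with numpy 2.4.6, scipy 1.17.1 and, for the plots, matplotlib 3.10.9.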

Additional observations from a re-analysis of the deposited data

How the results depend on the processing

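The 7 summary values were recomputed under the alternative settings, which gave 75 values. Of these, 51 stayed within the spread between replicates, within 1.5 times for the count in the strongest 10%, or within the Wilson 95% interval for shares. The alternatives that used the peak over the canonical TSS, or left out the 3 genes whose replicates differed, or took pseudogenes far from coding genes, were chosen after seeing the data. The median fold enrichment of the core genes was 62.1, and became 57.4 with the most 5′ TSS and 57.4 with the peak over the canonical TSS. On other scales it was 404 as −log10 q and 1.23 as a ratio to the chromosome median, and it was 62.1 to 64.4 with each replicate left out. With the most 5′ TSS, RPL4 and RPL10 had no peak there in both replicates. The median percentile was 59.0, was 53.8 with the peak over the canonical TSS and 59.0 to 62.5 with each replicate left out, and stayed above 50 in 12 of 12 alternatives. The number in the strongest 10% was 3, became 6 after division by the chromosome median, and was 3 to 5 with each replicate left out. The median width of 1018 bp became 1069 bp within 3 kb and 912 bp without genes that share a peak, and was 978 to 1027 bp with each replicate left out. The share of pseudogenes with a peak was 14.8%, and was 12.0% at a −log10 q of at least 10, 5.04% within 100 bp and 33.8% within 3 kb, and 16.4 to 17.7% with each replicate left out. The 60S to 40S ratio of 0.901 became 0.925 within 100 bp, 0.841 with the most 5′ TSS, 0.873 as −log10 q, 1.07 after division by the chromosome median, 0.813 with the peak over the canonical TSS and 0.921 without the 3 differing genes, and was 0.923 to 0.934 with each replicate left out. The cause of these shifts was not tested.

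No paired analysis was possible because there was 1 group. Peaks are listed only above the threshold of the caller, so an absent peak is one not detected above that threshold.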
